A study of Mus musculus with 7 samples.

Results

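The glutathione, glucuronide and sulfate conjugating enzymes are the 46 genes of the anterior prostate arrays whose symbol begins with Gsta, Gstm, Gstp, Gstt, Gstk, Gsto, Gstz, Mgst, Ugt1, Ugt2, Ugt3 or Sult and that have a row naming them alone, of 18938 genes measured in all. They comprise 19 soluble glutathione S-transferases (GST), 3 microsomal glutathione transferases (MGST), 9 UDP-glucuronosyltransferases (UGT) and 15 sulfotransferases (SULT). The reference annotation lists 67 genes with these symbols. The other 21, among them the whole Ugt1 locus, Gsta1, Gsta2 and Gstp2, have no row of their own, and 18 of them share 9 rows that name several genes, which were kept out of the comparison.

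The mice were Nkx3.1-/- animals of a recombinant inbred B6/129 strain, so both groups lacked Nkx3.1, the homeobox transcription factor of prostate epithelium, in every cell. From weaning they drank water with 5 mM N-acetylcysteine (NAC), a cysteine donor and glutathione precursor, or plain water (vehicle) for 13 weeks, and were 16 weeks old at tissue collection. RNA of single mice was read out on arrays of the type Affymetrix Mouse Gene 1.0 ST, 4 for NAC (replicates 1 to 4) and 3 for vehicle (replicates 1, 2 and 4), after 1 vehicle array failed the authors' quality control. NAC and vehicle mice were housed in separate cages, with littermates in both groups, so cage and treatment cannot be told apart. The extraction protocol and the authors' methods name the anterior prostate as the tissue, while a tissue label names the whole prostate. The labels alone do not settle this difference.

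Conjugating enzymes carry out the second phase of detoxification. GST and MGST proteins join the cysteine sulfur of glutathione to reactive compounds such as lipid peroxidation products, UGT proteins transfer glucuronic acid from UDP-glucuronic acid, and SULT proteins transfer sulfate from the donor PAPS. In the prostate these enzymes are known for handling electrophiles and for inactivating steroid hormones, and the human gene GSTP1 is known for being silenced in prostate cancer. NAC supplies the cysteine from which the transferase cofactor glutathione is built, so the arrays allow the question whether the RNA of the enzymes that spend these cofactors differed between NAC and vehicle prostates.

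Values are log2 expression as deposited, and a log2 fold change is the NAC mean minus the vehicle mean, with its standard error (SE) from limma. The medians of the 7 arrays lay between 7.16 and 7.20, and pairs of arrays correlated with r between 0.995 and 0.998 across genes, which are not independent replicates. The arrays were checked against markers of tissues that a dissection can include. NAC replicate 3 had mean marker levels of 7.90 for lung, 7.71 for adipocytes and 7.58 for skeletal muscle, against at most 5.77, 6.61 and 6.94 on every other array. Luminal prostate markers averaged 11.74 to 11.94 with NAC and 11.72 to 11.83 with vehicle, so the labelled tissue was seen on all arrays. In bulk tissue, fewer cells of a type and less RNA per cell cannot be told apart. For 7568 of all genes and for 13 of the 46 conjugating enzymes (28.3%), at least 3 arrays held the same value, and differences in such genes rest on few arrays.

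The promoters of the soluble enzymes Gstz1 and Gstk1 and of the membrane enzyme Mgst1 are shown because the first pair were the genes of brighter signal whose NAC arrays all lay below the vehicle arrays, while Mgst1 had the highest log2 fold change among the GST and MGST genes. Each run holds 300 bases 5′ to 3′, most of them before and the last of them after the RefSeq start of transcription (GRCm38.p6), and where a gene has several starts the one listed first was used. Capitals mark 3 motifs on either strand: the GC box GGGCGG, the CCAAT box CCAAT and the core of the antioxidant response element, TGACNNNGC, which Nrf2 (Nfe2l2) binds with a small Maf partner.
Gstz1, chr12:87146915-87147214, plus strand: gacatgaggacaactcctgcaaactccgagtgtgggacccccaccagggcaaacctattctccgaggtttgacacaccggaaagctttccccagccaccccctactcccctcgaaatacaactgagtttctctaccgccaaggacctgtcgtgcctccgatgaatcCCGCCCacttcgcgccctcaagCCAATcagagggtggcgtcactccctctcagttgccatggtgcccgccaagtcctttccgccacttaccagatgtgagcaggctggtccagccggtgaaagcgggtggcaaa
Gstk1, chr6:42245685-42245984, plus strand: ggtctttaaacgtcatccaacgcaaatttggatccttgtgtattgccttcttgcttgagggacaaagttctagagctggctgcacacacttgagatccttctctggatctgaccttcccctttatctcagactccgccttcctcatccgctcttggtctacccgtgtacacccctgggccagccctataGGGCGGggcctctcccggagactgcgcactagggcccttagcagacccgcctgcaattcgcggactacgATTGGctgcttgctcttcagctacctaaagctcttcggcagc
Mgst1, chr6:138140277-138140576, plus strand: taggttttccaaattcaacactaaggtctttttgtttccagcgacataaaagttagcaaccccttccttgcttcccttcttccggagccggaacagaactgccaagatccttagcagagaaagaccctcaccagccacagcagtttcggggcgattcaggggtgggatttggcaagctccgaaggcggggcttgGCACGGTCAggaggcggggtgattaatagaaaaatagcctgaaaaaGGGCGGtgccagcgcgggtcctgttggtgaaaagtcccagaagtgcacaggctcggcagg
In these windows Gstz1 and Gstk1 each held a GC box and a CCAAT box, and Mgst1 held a GC box and a response element core, read on the opposite strand. Promoters were matched for 42 of the 46 genes, 54 start sites in all. The response element core was in 4 of the 54 (7.41%), those of Gsta3, Gstm5, Gstm7 and Mgst1, against 12.4% of 32851 mouse promoters. The GC box was in 31.5% of the enzymes' promoters and 35.7% of all, and the CCAAT box in 48.1% and 37.4%. A match describes the letters only.

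The conjugating enzymes differed little between NAC and vehicle prostates relative to the spread of the arrays. None of the 46 passed an adjusted p of 0.05 in limma, nor did any of the 18938 genes (0%), with a smallest adjusted p of 0.83 for both. The log2 fold changes of the 46 ran between -0.35 and 0.35 with a median of 0.005, against a median of -0.0003 over all genes, and the median size was 0.08 against 0.05. In 25 genes the NAC mean was higher and in 21 lower (54.3% and 45.7%), against 49.5% and 50.5% of all genes. This majority turned to 21 higher and 25 lower after quantile normalization again, without NAC replicate 4 and without vehicle replicate 4, and was 28 higher without NAC replicate 2 or vehicle replicate 1. At an unadjusted p under 0.05, 3 of the 46 (6.52%) were lower and 0 higher, against 4.41% of all genes in either direction (2.53% lower and 1.89% higher). The arrays of both groups did not overlap in those same 3 genes, Gstz1, Gstk1 and Ugt2b38, each with NAC below, against 2.18% of all genes with NAC below and 1.29% with NAC above. With 7 arrays the 95% confidence intervals of the 46 log2 fold changes reached 0.07 to 0.47 to either side, with a median of 0.18. For 40 genes the interval lay inside ±0.5, and those of Gsta3, Gstp1, Gstt1, Gstt2, Mgst1 and Sult1e1 reached past it, none beyond ±1. The plot of fold changes gives every gene with its interval.

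**Figure D1:**
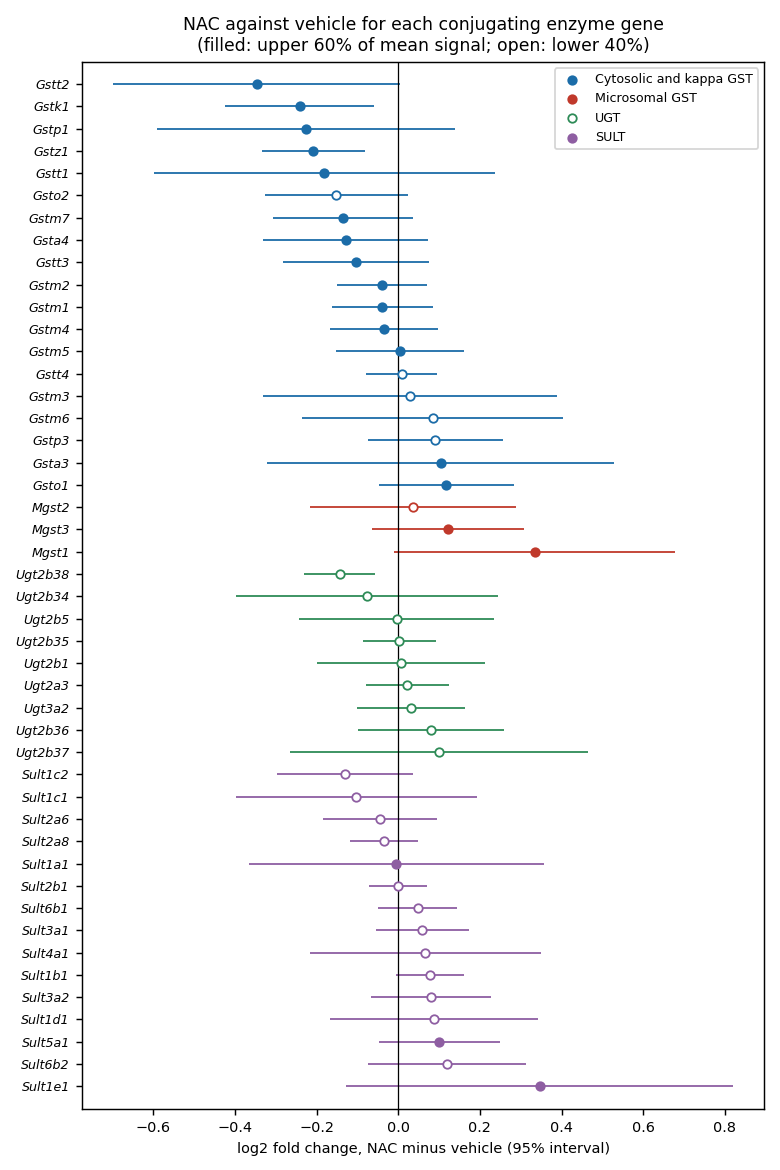
The x axis gives the log2 fold change of NAC over vehicle with its 95% confidence interval for each of the 46 genes (y axis), coloured by class, with filled points for genes in the upper 60% of mean signal and open points for the rest. Intervals that leave out 0 belong to Gstk1, Gstz1 and Ugt2b38, all below 0, and the highest points are Sult1e1 at 0.35 and Mgst1 at 0.33.

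How bright a probe set was went together with the sign of its fold change over the whole array, and the enzymes have to be read against that. Bright genes are those at or above the 40th percentile of the mean over 7 arrays (a log2 value of 6.59), and dim genes those below. Of 11363 bright genes 61.5% were lower with NAC, and of the dim genes 66.0% were higher. The interquartile range of an array was 2.98 to 3.10 with NAC and 3.06 to 3.14 with vehicle. The enzymes had nearly the same split: 12 of 19 bright ones were lower (63.2%) and 7 higher, against 38.5% of all bright genes higher, and 18 of 27 dim ones higher (66.7%). When the arrays were quantile normalized again, 49.7% of bright genes were lower, while 12 of the 19 bright enzymes still were, and 14 of the 27 dim ones were higher. Single arrays also bear on the split: 9 of the 19 bright enzymes were lower without vehicle replicate 1 and 10 without NAC replicate 2, and 13 of the 27 dim ones were higher without NAC replicate 4. Gstz1 and Gstk1 make up the 2 of 19 bright enzymes (10.5%) that were lower at an unadjusted p under 0.05 and did not overlap. Of all bright genes 4.89% had such a p, 3.67% lower and 1.22% higher, and the groups did not overlap in 3.26% with NAC below and 1.03% with NAC above. The bright genes held 14 of the 19 GST, 2 of the 3 MGST, 3 of the 15 SULT and 0 of the 9 UGT.

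**Figure D2:**
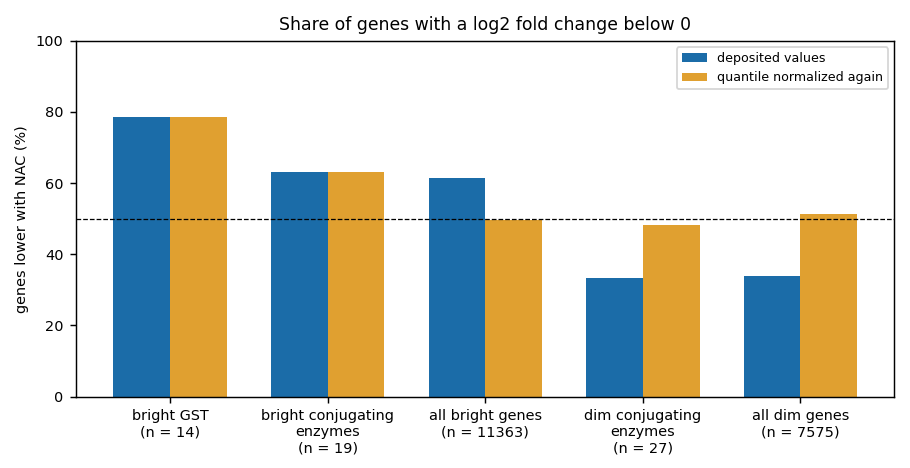
Bars give the percentage of genes (y axis) with a log2 fold change below 0 in each set (x axis), from the deposited values and after quantile normalization again; the dashed line is at 50%. The bars of all bright genes stand at 61.5% and 49.7%, while those of the 14 bright GST stand at 78.6% under both.

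Among the soluble glutathione transferases the NAC mean was lower in 12 of 19 genes and higher in 7, and the median log2 fold change was -0.04. Single vehicle arrays move this split: 9 were higher and 10 lower without vehicle replicate 1 (median -0.001), 5 and 14 without vehicle replicate 2 (median -0.10), and 3 and 16 without vehicle replicate 4 (median -0.07). Of the 14 bright ones 11 were lower (78.6%, against 61.5% of all bright genes) with a median of -0.12, and the count was 11 after quantile normalization again, 10 without NAC replicate 2 and 9 without vehicle replicate 1. The median of the 14 was -0.06 without NAC replicate 2, when 60.6% of all bright genes were lower, and -0.07 without vehicle replicate 1, when 54.9% were. These counts are a description of related genes on shared arrays. Among the bright enzymes of all classes NAC replicate 2 was the single lowest array in 8 of 19 (42.1%, against 15.7% of all bright genes), and vehicle replicate 1 the single highest in 9 of 19 (47.4%, against 24.5%). The part of these arrays in the direction of the GST genes was not tested further than by leaving them out.

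Gstz1, glutathione transferase zeta or maleylacetoacetate isomerase, takes part in the breakdown of phenylalanine and tyrosine. It was at 9.21, 9.18, 9.25 and 9.04 in NAC replicates 1 to 4, against 9.38, 9.35 and 9.40 in vehicle replicates 1, 2 and 4. Every NAC array lay below every vehicle array, and the vehicle arrays were close to each other. The mean was 9.17 ± 0.09 with NAC and 9.38 ± 0.02 with vehicle (SD, n = 4 and 3). The log2 fold change was -0.21 (SE 0.05), a difference of -13.4% on the linear scale, with an unadjusted p of 0.00588 and an adjusted p of 0.83 in limma. It ranged between -0.23 and -0.16 when each array was left out, and the unadjusted p was under 0.05 in all 7 of these fits.

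Gstk1, the kappa class enzyme of mitochondria and peroxisomes, was at 11.84, 12.12, 11.97 and 12.13 in NAC replicates 1 to 4, against 12.27, 12.30 and 12.20 in vehicle replicates 1, 2 and 4. Here too the groups did not overlap, with NAC replicate 1 lowest and a narrow gap between NAC replicate 4 and vehicle replicate 4. The mean was 12.02 ± 0.14 with NAC and 12.26 ± 0.05 with vehicle (SD, n = 4 and 3). The log2 fold change was -0.24 (SE 0.08), or -15.4% on the linear scale, with an adjusted p of 0.83 in limma, and the unadjusted p was under 0.05 in 5 of the 7 fits that left out an array, the exceptions being those without vehicle replicate 1 or 2. Markers of the seminal vesicle, the gland next to the anterior prostate, averaged 8.62, 9.87, 9.31 and 10.64 in NAC replicates 1 to 4, against 10.01, 10.39 and 10.37 in vehicle replicates 1, 2 and 4. All 7 of these markers were lower with NAC, 3 of them at an unadjusted p under 0.05 in limma. The NAC arrays were in the same order for the average of these markers and for Gstk1 but not for Gstz1. Single markers differed. Svs3a, Svs4 and Svs6, the 3 with such a p, were highest among NAC arrays in replicate 2. Svs2 (13.53) and Pate4 (11.43) in NAC replicate 4 lay above every vehicle array. The part of these markers in the Gstk1 and Gstz1 values was not tested.

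The theta class, which acts on small halogenated compounds and other electrophiles, had 3 of 4 genes lower with NAC, and the median log2 fold change was -0.14, at -0.05 without NAC replicate 2 and at -0.23, with 4 of 4 genes lower, without NAC replicate 3. All 4 were lower without vehicle replicate 4 as well. Gstt2 was at 7.61, 7.05, 7.63 and 7.41 in NAC replicates 1 to 4, against 7.87, 7.63 and 7.82 in vehicle replicates 1, 2 and 4. The groups just touched, at NAC replicate 3 and vehicle replicate 2, and NAC replicate 2 was far below the rest. Gstt2 averaged 7.42 ± 0.27 with NAC and 7.77 ± 0.13 with vehicle (SD, n = 4 and 3). Its log2 fold change of -0.35 (SE 0.15, adjusted p 0.83) was the lowest of the 46, and was -0.22 without NAC replicate 2. Gstt1 was at 8.0, 7.66, 8.42 and 7.86 with NAC and at 8.33, 8.05 and 8.12 with vehicle, a log2 fold change of -0.18 (SE 0.18). NAC replicate 3, the array with lung and adipocyte transcripts, was the highest of all 7 for this gene, so that the log2 fold change was -0.33 without it, -0.07 without NAC replicate 2 and -0.10 without vehicle replicate 1. Gstt3, at 9.39, 9.14, 9.43 and 9.39 with NAC and 9.49, 9.38 and 9.45 with vehicle, had a log2 fold change of -0.10, and of -0.04 without NAC replicate 2.

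Gstp1, the pi class enzyme and the best known transferase of the prostate, was even among NAC arrays and uneven among vehicle arrays. It was at 10.15, 10.15, 10.05 and 10.04 in NAC replicates 1 to 4, against 10.64, 10.40 and 9.93 in vehicle replicates 1, 2 and 4. The SD was 0.06 with NAC (n = 4) and 0.36 with vehicle (n = 3), and the vehicle arrays held both the highest and the lowest value. The log2 fold change of -0.23 (SE 0.15, adjusted p 0.83) became -0.42 without vehicle replicate 4 and -0.07 without vehicle replicate 1, so its size rests on which vehicle arrays are counted. Gstp2, its close copy on the same chromosome, shares a row with Gstp1 and has none of its own, so how far the probes tell these copies apart was not tested.

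The mu class, with 7 genes in a cluster on chromosome 3, had 4 genes lower and 3 higher, and the median log2 fold change was -0.03. The direction of the class rests on single vehicle arrays: 5 genes were higher and 2 lower without vehicle replicate 1 (median 0.01), 1 and 6 without vehicle replicate 2 (median -0.05), and 0 and 7 without vehicle replicate 4 (median -0.06). Gstm1, a major mu enzyme in mouse, was at 10.69, 10.62, 10.73 and 10.76 in NAC replicates 1 to 4, against 10.83, 10.70 and 10.69 in vehicle replicates 1, 2 and 4, a log2 fold change of -0.04 (SE 0.05). The groups overlapped over most of their range. Gstm2 differed by -0.04 and Gstm4 by -0.03, and without vehicle replicate 1 Gstm1 and Gstm4 turned to 0.01, as Gstm4 also turned to just above 0 without NAC replicate 2. Gstm7 was at 7.57, 7.45, 7.63 and 7.62 with NAC and 7.85, 7.65 and 7.61 with vehicle, a log2 fold change of -0.14 (SE 0.07), and of -0.06 without vehicle replicate 1.

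In the alpha class, whose members reduce lipid hydroperoxides and conjugate the products of lipid peroxidation, the pair with rows of their own went opposite ways. Gsta4, which conjugates 4-hydroxynonenal, was at 8.70, 8.72, 9.0 and 8.91 in NAC replicates 1 to 4, against 9.05, 8.91 and 8.91 in vehicle replicates 1, 2 and 4, a log2 fold change of -0.13 (SE 0.08) that was -0.08 without NAC replicate 1 or vehicle replicate 1. NAC replicates 1 and 2 lay below all vehicle arrays and NAC replicates 3 and 4 among them. Gsta3, known in human for isomerizing steroid intermediates, was at 8.84, 8.41, 9.05 and 9.12 with NAC and 8.87, 8.83 and 8.56 with vehicle, a log2 fold change of 0.10 (SE 0.18) that was 0.25 without NAC replicate 2 and 0.01 without vehicle replicate 4. The omega class, which reduces dehydroascorbate and mixed disulfides, was also divided. Gsto1 was at 10.24, 10.07, 10.11 and 10.12 with NAC and 10.09, 10.09 and 9.87 with vehicle, a log2 fold change of 0.12 (SE 0.07) that was 0.04 without vehicle replicate 4. Gsto2, a dim gene, was at 5.42, 5.65, 5.65 and 5.55 with NAC and 5.65, 5.67 and 5.83 with vehicle, a log2 fold change of -0.15 (SE 0.07) that was -0.09 without vehicle replicate 4. The other 5 GST genes, with a higher NAC mean over all 7 arrays, had log2 fold changes of at most 0.09 there, and 1 of them, the mu gene Gstm3, was at 0.22 without vehicle replicate 1.

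**Figure D3:**
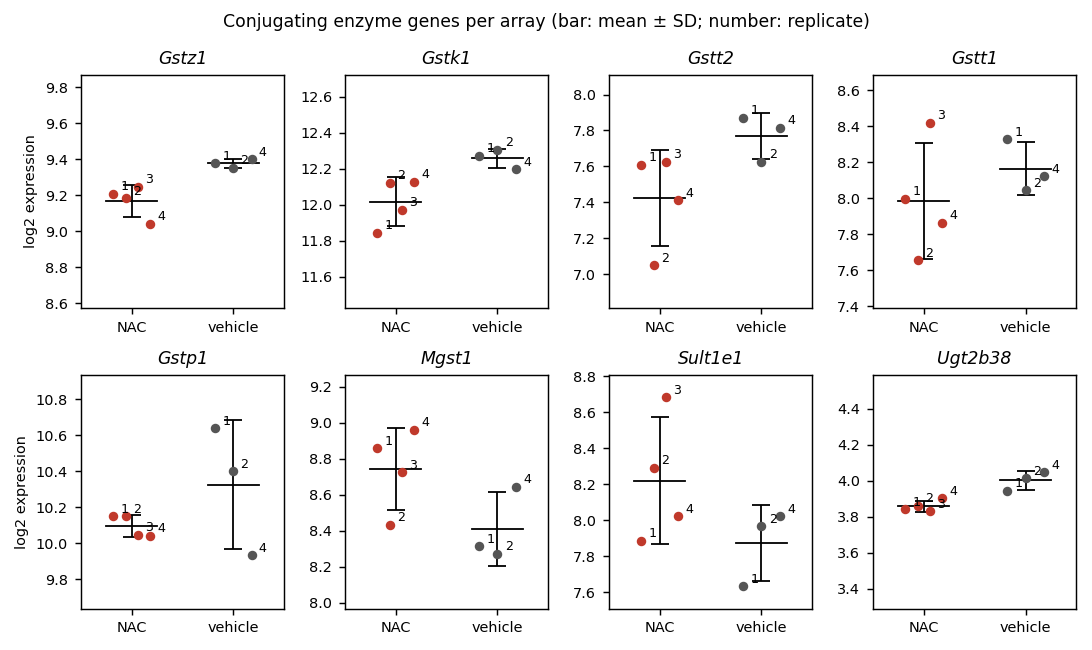
Each panel gives the log2 expression (y axis) of one gene on each array, NAC in red at the left and vehicle in grey at the right, with the replicate number beside the point and the mean ± SD as bars (n = 4 and 3); all panels span the same number of log2 units. Gstz1, Gstk1 and Ugt2b38 show groups that do not overlap, while Gstp1 shows vehicle arrays on both sides of the NAC arrays.

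The microsomal transferases, membrane proteins of the MAPEG family that conjugate glutathione and reduce lipid hydroperoxides, had a higher NAC mean in all 3 genes (median log2 fold change 0.12), and in 2 of the 3 without NAC replicate 3, NAC replicate 4 or vehicle replicate 1. Mgst1, the most studied of them, was at 8.86, 8.44, 8.73 and 8.96 in NAC replicates 1 to 4, against 8.31, 8.27 and 8.65 in vehicle replicates 1, 2 and 4. Of the NAC arrays, replicates 1, 3 and 4 lay above every vehicle array and replicate 2 lay below vehicle replicate 4. Mgst1 averaged 8.75 ± 0.23 with NAC and 8.41 ± 0.20 with vehicle (SD, n = 4 and 3). The log2 fold change was 0.33 (SE 0.15), with an adjusted p of 0.83 in limma, and ran between 0.26 and 0.45 when each array was left out. Mgst3 was at 9.08, 8.97, 8.89 and 9.07 with NAC and 8.96, 8.97 and 8.72 with vehicle, a log2 fold change of 0.12 (SE 0.08) that was 0.04 without vehicle replicate 4. The dim Mgst2 was at 5.36 to 5.76 with NAC and 5.42 to 5.62 with vehicle. Markers of macrophages averaged 7.92, 7.70, 7.79 and 7.66 in NAC replicates 1 to 4, against 7.56, 7.62 and 7.67 in vehicle replicates 1, 2 and 4. The NAC mean was higher in 8 of 8 of these markers, 0 of them at an unadjusted p under 0.05. NAC replicate 4, the highest array for Mgst1, had the lowest average of these markers among the NAC arrays. Single markers differed. C1qc and Adgre1 were lowest there, and C1qb was equally low there and in NAC replicate 2. C1qa, Csf1r and Cd68 were lowest in NAC replicate 2, also the lowest NAC array for Mgst1, and Mrc1 and Cd163 in NAC replicate 1. Vehicle replicate 4 was the highest vehicle array for Mgst1 and for the marker average. The part of these markers in the MGST values was not tested.

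The 9 glucuronosyltransferases, 8 of the Ugt2 family and Ugt3a2, were all dim, with values between 3.43 and 6.05 on every array. Enzymes of the Ugt2 family are known mainly from liver, where they conjugate steroids and bile acids, and hepatocyte markers averaged 5.63 to 5.72 with NAC and 5.59 to 5.71 with vehicle. The NAC mean was higher in 6 genes and lower in 3 (median log2 fold change 0.01), and after quantile normalization again it was higher in 3 and lower in 6, and without NAC replicate 4 it was higher in 4 and lower in 5. Ugt2b38 was at 3.84, 3.86, 3.83 and 3.90 in NAC replicates 1 to 4, against 3.95, 4.01 and 4.05 in vehicle replicates 1, 2 and 4. The groups did not overlap, at a level for which summarized values do not show whether it stands above background. The log2 fold change was -0.14 (SE 0.04, unadjusted p 0.00625, adjusted p 0.83), with a range of -0.17 to -0.12 when each array was left out. The other 8 UGT genes had log2 fold changes between -0.08 and 0.10 over all 7 arrays.

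Of the 15 sulfotransferases 9 were higher and 6 lower (median log2 fold change 0.06), and 12 were dim. The median was 0.03 without vehicle replicate 2 or 4, and 11 genes were higher and 4 lower without vehicle replicate 1 or 2. Sult1e1, the estrogen sulfotransferase, which inactivates estradiol, varied most of all 46 genes, with a range of 1.05 over the 7 arrays. It was at 7.89, 8.29, 8.68 and 8.02 in NAC replicates 1 to 4, against 7.63, 7.97 and 8.02 in vehicle replicates 1, 2 and 4. NAC replicates 2 and 3 lay above all vehicle arrays, NAC replicate 4 equalled the highest of them and NAC replicate 1 lay among them. Sult1e1 averaged 8.22 ± 0.35 with NAC and 7.87 ± 0.21 with vehicle (SD, n = 4 and 3). The log2 fold change of 0.35 (SE 0.20, adjusted p 0.83) was the highest of the 46, and was 0.19 without NAC replicate 3 and 0.23 without vehicle replicate 1. On NAC replicate 3 adipocyte markers averaged 7.71, against 6.45 to 6.61 on the other NAC arrays and 6.49 to 6.61 with vehicle. The averages of lung, skeletal muscle, fibroblast and endothelium markers were also highest on NAC replicate 3. The part of these tissues in the Sult1e1 value was not tested. Sult1a1, the phenol sulfotransferase, was at 7.02, 6.76, 7.42 and 6.86 with NAC and 7.08, 6.94 and 7.04 with vehicle, again with NAC replicate 3 as the highest array. Its log2 fold change was -0.005 (SE 0.15), -0.14 without NAC replicate 3 and above 0 without NAC replicate 2. Sult5a1 was at 8.01, 7.81, 7.91 and 7.88 with NAC and 7.90, 7.79 and 7.72 with vehicle, a log2 fold change of 0.10 (SE 0.06), between 0.06 without vehicle replicate 4 and 0.15 without vehicle replicate 1. Among the dim sulfotransferases Sult1c2 had a log2 fold change of -0.13, and of -0.08 without vehicle replicate 1, and Sult1b1 one of 0.08, and over all 7 arrays the 12 lay between -0.13 and 0.12.

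**Figure D4:**
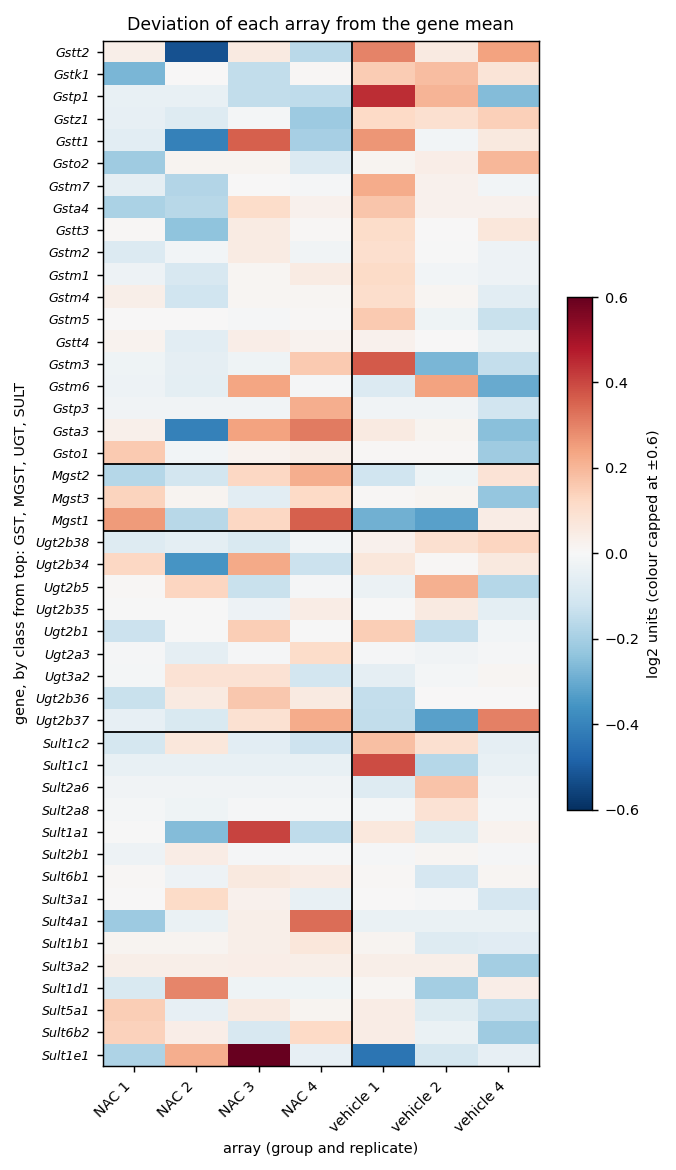
Rows are the 46 genes, grouped by class as GST, MGST, UGT and SULT from the top and ordered by fold change within a class; columns are the 4 NAC and the 3 vehicle arrays, divided by a vertical line, and colour gives the deviation from the gene mean in log2 units, capped at ±0.6. Single arrays stand out in single genes, such as NAC replicate 3 for Sult1e1, NAC replicate 2 for Gstt2 and vehicle replicate 1 for Gstp1.

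The genes that make, use and clear the cofactors and conjugates were described in 8 lists, and 0 of their genes passed an adjusted p of 0.05. In all 8 lists only Glo1 and Esr2, described below, had an unadjusted p under 0.05 in limma, while 4.41% of all genes had one. Of 13 genes of glutathione synthesis and cysteine supply 9 were higher and 4 lower (median log2 fold change 0.04), 0 of them at an unadjusted p under 0.05. Ggt5, a gamma-glutamyl transferase, had a log2 fold change of 0.12 (SE 0.06) and Cbs, which starts transsulfuration to cysteine, one of 0.08 (SE 0.06). Without vehicle replicate 4 these were 0.08 and 0.01, and Ggt5 was also 0.08 without NAC replicate 3. In the list for the supply of UDP-glucuronic acid 6 of 9 genes were higher, with a median of 0.03, and Pgm1, a phosphoglucomutase, was at -0.08. Slc35a3, listed there as a nucleotide sugar transporter, was at -0.06 and Slc35d1 at -0.01. Whether these transporters carry UDP-glucuronic acid was not tested. For the sulfate donor PAPS 4 of 8 genes were higher, with a median of -0.03; the PAPS synthase Papss1 was at -0.11 and the sulfate transporter Slc26a2 at -0.13. None of these reached an unadjusted p under 0.05, and 3 moved with single arrays: Pgm1 was at -0.04 without NAC replicate 2, Slc35a3 at -0.03 without NAC replicate 4, and Papss1 at -0.06 without vehicle replicate 1.

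Of 11 deconjugation genes 6 were higher, and the median log2 fold change was 0.003. The aminoacylase Acy1, which removes the acetyl group of N-acetylated amino acids, NAC among them, was at 7.34, 7.27, 7.34 and 7.34 in NAC replicates 1 to 4, against 7.51, 7.46 and 7.29 in vehicle replicates 1, 2 and 4, a log2 fold change of -0.09 (SE 0.06), at -0.04 without vehicle replicate 1 and -0.16 without vehicle replicate 4. The dipeptidase Dpep2 had a log2 fold change of 0.21 (SE 0.17), at 0.07 without NAC replicate 1 and 0.11 without vehicle replicate 4. Of 8 conjugate exporters 5 were higher, with a median of 0.01, with Abcc2 at -0.11 and Abcc1, which exports glutathione conjugates, at 0.08, but at -0.04 and 0.01 without vehicle replicate 4. Of 9 other glutathione enzymes and MAPEG proteins 7 were higher, with a median of 0.04 and 1 at an unadjusted p under 0.05. That gene was Glo1, glyoxalase I, which with glutathione detoxifies methylglyoxal, at 8.70, 8.67, 8.71 and 8.69 with NAC and 8.67, 8.48 and 8.59 with vehicle, a log2 fold change of 0.11 (SE 0.05) that was 0.07 without vehicle replicate 2. Hagh, glyoxalase II, the next enzyme of that path, was at 10.14, 10.03, 10.07 and 9.99 with NAC and 9.99, 9.96 and 9.99 with vehicle. Its NAC arrays lay just above the vehicle arrays, as they did in 1.29% of all genes. The log2 fold change of Hagh was 0.08 (SE 0.04, unadjusted p 0.097 in limma), at 0.05 without NAC replicate 1.

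Of 13 regulators 6 were higher and 7 lower, and the median log2 fold change was -0.006. Nfe2l2, the transcription factor Nrf2 that binds antioxidant response elements, was at 9.66, 9.64, 9.66 and 9.50 with NAC and 9.79, 9.66 and 9.74 with vehicle, a log2 fold change of -0.11 (SE 0.05), at -0.07 without NAC replicate 4. The mRNA of Nfe2l2 does not give the level of its protein, which is controlled by its breakdown. Arnt, the partner of the aryl hydrocarbon receptor, had a log2 fold change of -0.05, at -0.03 without NAC replicate 4. Of 11 steroid enzymes and receptors 8 were higher, with a median of 0.02 and 1 lower at an unadjusted p under 0.05, the estrogen receptor beta gene Esr2, at 7.31, 7.24, 7.25 and 7.32 with NAC and 7.47, 7.31 and 7.40 with vehicle, a log2 fold change of -0.11 (SE 0.05), at -0.07 without vehicle replicate 1. The hydroxysteroid dehydrogenase Akr1c14 had a log2 fold change of 0.19 (SE 0.11), at 0.07 without vehicle replicate 1 and 0.12 without NAC replicate 3. The lists are set side by side with the conjugating enzymes in the plot by gene group.

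**Figure D5:**
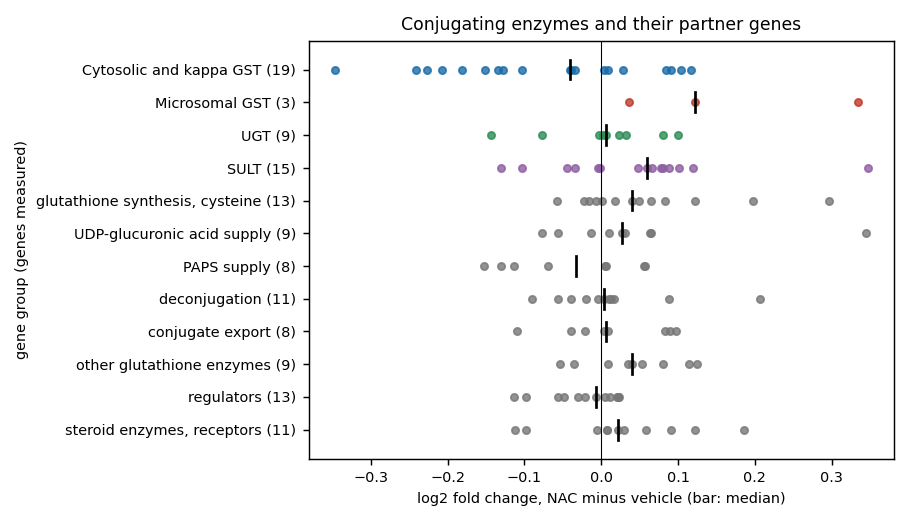
Points are the log2 fold changes of NAC over vehicle (x axis) of single genes in the 4 enzyme classes (coloured) and the 8 partner lists (grey), with the number of genes measured in parentheses (y axis) and the median as a black bar. All medians lie between -0.04 and 0.12, and in every group single genes lie on both sides of 0 except for the microsomal transferases.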

How the data were processed

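RNA of 7 prostates was measured, and the labels gave each array its treatment and replicate. The deposited log2 values come from the authors, who used affy in R to quantile normalize the arrays, correct their background by RMA and summarize probes by median polish; limma is also named in the submitters' processing notes. The number of arrays, each of 1 mouse, limits the precision, and summarized values do not show signal over background.

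Of 20696 probe sets 18950 named 1 gene, 678 several and 1068 none in the platform annotation. Symbols were updated through Entrez identifiers (18910 found in the RefSeq table of GRCm38.p6), and the probe set with the highest mean was kept, giving 18938 genes. The table has 0 columns without a sample.

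Differences between NAC and vehicle were tested two-sided in limma 3.58.1 (R 4.3.3; functions lmFit and eBayes) without covariates, with Benjamini-Hochberg adjusted p-values over all genes and a threshold of 0.05, since the methods name no test of single genes. The enzymes, partner lists and marker lists were chosen with earlier results of these data known, and the motifs with the sequences at hand. Named genes are Mgst1, the 10 enzymes with the highest mean, the 12 with the smallest unadjusted p, those whose groups do not overlap, the 5 with the largest range, and per partner list the 2 genes with the smallest unadjusted p; others named were chosen after their values were seen. Some genes of the partner and marker lists are not reported here. Promoters of Gsta4, Gstt2, Sult4a1 and Ugt3a2 were not used here. Probes of close family members can respond to each other's RNA, which was not tested.

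The alternatives were a variance trend with robust fit, array weights, array medians subtracted, quantile normalization again, removal of dim genes, the median over probe sets, each array left out, the replicate number as a block, and all probe sets.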

Additional observations from a re-analysis of the deposited data

Results flagged for a closer look

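In the group of 4 NAC arrays, 12 of 60 named or conjugating enzyme genes tested held an array far from the other 3, with a gap that took up more of the whole range than Dixon's critical value allows. Chance gives about 1 in 20 where values are free to differ, but on these arrays, where many genes hold equal values, 3835 of 18564 genes (20.7%) met the same criterion. Of the 44 conjugating enzymes tested, 6 did so (13.6%). Gstm4 was at 8.85 and Gstt3 at 9.14 in NAC replicate 2, below the next arrays at 8.98 and 9.39. Gstm3 was at 6.40 and Gstp3 at 5.88 in NAC replicate 4, above the next at 6.21 and 5.64. Gstm6 was at 4.645 in NAC replicate 3, above the next at 4.40, and Sult3a2 at 3.149 there, with the other 3 arrays at the same value of 3.142.

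Among partner genes, NAC replicate 4 was lowest for Nfe2l2, at 9.50 with the next array at 9.64, lowest for Arnt, at 9.77 with the next at 9.86, and highest for Abcc1, at 8.13 with the next at 8.09. NAC replicate 2 was lowest for Acy1, at 7.27 with the next at 7.34, and for Pgm1, at 8.74 with the next at 8.89. Akr1c14 was at 4.92 in NAC replicate 3 with the next array at 4.66. In Sult3a2, Acy1, Akr1c14, Arnt and Gstp3 the other 3 arrays shared 1 value, so that any departure counts as far.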

How the results depend on the processing

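The 0 conjugating enzymes called at an adjusted p of 0.05 were 0 under each of the 15 alternatives. Of the 37 genes named by the rule above, 35 kept the sign of their fold change, with a smallest adjusted p of 0.67. Enzymes described outside that rule also changed sign. Sult1a1 was at 0.02 with array weights, and Mgst2 at -0.0004 with array weights and -0.0003 with the replicate number as a block. Leaving out single arrays moved them further: Sult1a1 was above 0 without NAC replicate 2, and Mgst2 below 0 without NAC replicate 4. When each array was left out, Gstm4 lay between -0.075 and 0.010, highest without vehicle replicate 1 and at 0.0003 without NAC replicate 2, and Gstm1 between -0.064 and 0.0070, highest without vehicle replicate 1. Over all genes 0 were called, and 0 to 1 when each array was left out (1 without NAC replicate 4). The 3 enzymes with an unadjusted p under 0.05 were 5 with array medians subtracted, 6 after quantile normalization again and 2 to 7 when each array was left out, with 7 without vehicle replicate 4 and 6 without NAC replicate 2; the cause was not tested. Of all genes 836 had such a p, 813 with array medians subtracted, 813 after quantile normalization again and 597 to 1257 when each array was left out (664 without vehicle replicate 4 and 1257 without NAC replicate 2). Without dim genes 7 of 19 enzymes were higher and their median log2 fold change was -0.039. Of the 27 dim enzymes left out there, 18 were higher in the main fit, with a median of 0.029.

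Replicate numbers paired NAC with vehicle arrays unevenly. The deviations of arrays with the same number correlated with r of 0.21 for number 1, 0.29 for number 2 and -0.07 for number 4. Those for numbers 1 and 2 were the highest of all pairs. NAC replicate 4 correlated best with vehicle replicate 2 (0.21), and vehicle replicate 4 with NAC replicate 3 (0.11). The labels do not say what the numbers mark. With the replicate number as a block, which leaves NAC replicate 3 without a partner, 6 enzymes had an unadjusted p under 0.05 (Gstt1, Gstt2, Gstz1, Mgst1, Sult1a1 and Ugt2b38) and 24 were higher, against 956 of 18938 genes with such a p and 49.4% higher.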

Other observations

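The rows that name several family genes could not be given to 1 gene, but cover enzymes that the comparison leaves out. The row of 8 Ugt1a genes, which share their last exons, was at 6.54, 6.45, 6.49 and 6.50 in NAC replicates 1 to 4, against 6.52, 6.43 and 6.49 in vehicle replicates 1, 2 and 4, a log2 fold change of 0.01 (SE 0.04). The row of Gstp1 and Gstp2 was at 7.66, 7.66, 7.46 and 7.58 with NAC and 8.10, 7.36 and 7.50 with vehicle, with vehicle replicate 1 highest, as it was in the row of Gstp1 alone. The 3 rows of Gsta1 and Gsta2 had log2 fold changes of -0.13, 0.17 and 0.07. One of them varied widely, at 3.64, 3.91, 4.88 and 4.97 with NAC and 4.56, 4.24 and 4.66 with vehicle. The rows of Sult2a genes had log2 fold changes of 0.09 and -0.02.

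The partner genes Ugdh, Chac1 and Slc7a11 varied widely between single mice in both groups; they and Gclc were chosen after their values were seen. Ugdh, which makes UDP-glucuronic acid, was at 8.01, 9.15, 8.24 and 9.10 in NAC replicates 1 to 4, against 7.93, 8.99 and 7.93 in vehicle replicates 1, 2 and 4, with a log2 fold change of 0.34 (SE 0.39). Basal epithelial markers averaged 8.57, 8.0, 8.37 and 8.06 on the NAC arrays and 8.32, 8.01 and 8.26 on the vehicle arrays. This average was lowest on the 3 arrays with high Ugdh. Single markers differed: Krt14 was lowest in NAC replicate 4 (7.51), but its 7.80 in NAC replicate 2 lay above every vehicle array. A link between Ugdh and these markers was not tested. Chac1, which breaks down glutathione, was at 8.55, 8.95, 9.0 and 9.67 with NAC and 8.41, 9.85 and 7.99 with vehicle. Slc7a11, the cystine transporter, was at 5.05, 6.29, 5.92 and 5.50 with NAC and 5.26, 6.10 and 5.11 with vehicle. Gclc, the catalytic subunit of the first enzyme of glutathione synthesis, was at 10.02, 10.17, 9.99 and 10.08 with NAC and 10.03, 10.26 and 9.89 with vehicle, with vehicle replicate 2 as the highest vehicle array for each of these 4 genes.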
